A study of Mus musculus with 6 samples.

Results

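The genes described here are 10 nuclear components of Wnt/β-catenin signalling: the 4 TCF/LEF DNA-binding factors (Tcf7, Tcf7l1, Tcf7l2 and Lef1), the β-catenin adaptors Bcl9 and Bcl9l, the PHD-finger protein Pygo2, and the Groucho-type co-repressors Tle1, Tle3 and Tle4. They were taken by symbol, and each symbol matched 1 gene among the 54146 genes counted. All 10 also passed the filter on low counts that left 16897 genes for testing.

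The 6 libraries came from sorted cells of the embryonic mouse cortex, 3 labelled Mir and 3 labelled Scr. Cells of wild-type embryos were electroporated in utero at E14.5 (embryonic day), and fluorescent cells were sorted 24 hours later, at E15.5. The Mir embryos received psil-pre-miR3607, in which the U6 promoter drives a hairpin precursor of the microRNA miR-3607-5p, and the Scr embryos received psil-pre-miRScr, a U6 plasmid with a control sequence. Both groups also received pCAG-GFP, in which the CAG promoter drives green fluorescent protein, so that the sort selected cells that had taken up plasmid and not a defined cell type. Each library held the pooled cells of 2 embryos, and the 3 pools of a group were independent. The labels disagree on the strain, which is C57BL/6 in one field and ICR in another. The level of the hairpin product itself is not measured by these counts. The series title names the Wnt/β-catenin pathway, and the comparison addresses how the miR-3607-5p hairpin plasmid bears on it.

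When Wnt ligands bind their receptors, β-catenin escapes degradation, enters the nucleus and docks on TCF/LEF factors that already occupy DNA. Without β-catenin the same factors hold TLE proteins and keep their targets silent. BCL9 proteins bridge β-catenin to Pygopus proteins, which read a methylation mark on histone H3 and help to switch the targets on. In the developing cortex this pathway is known for maintaining progenitors and for patterning the medial wall.

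Counts in genes were 14671557 to 15847663 in the Mir libraries and 12724511 to 16684038 in the Scr libraries. Progenitor and neuronal genes that define the labelled tissue were present in all 6 libraries: Pax6 was at 64.7 to 149 counts scaled to equal library totals (CPM), Eomes at 172 to 524 CPM and Neurod2 at 508 to 573 CPM. Markers of other cells differed between libraries. The summed level of 15 endothelial markers was 34.0, 36.5 and 104 CPM in Mir replicates 1, 2 and 3, and 144, 339 and 54.8 CPM in Scr replicates 1, 2 and 3. That of 10 inhibitory neuron markers was 215, 201 and 477 CPM in Mir and 367, 1317 and 489 CPM in Scr, in the same order of replicates. Scr replicate 2 was the highest library for both lists, and Mir replicates 1 and 2 were the lowest. In bulk libraries, fewer cells of a type and less RNA per cell cannot be told apart.

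The strand of the hairpin that follows its loop is shown first, because its seed decides which words were searched in the 10 transcripts. It is printed 5′ to 3′ in the DNA letters of the oligonucleotide, with the seed (bases 2 to 8) in capitals.
Strand after the loop: gCATGTGAtgaagcaaatcagt
A transcript was scored as matching where it held TCACATG (complementary to the seed) or CACATGA (complementary to bases 2 to 7, followed by A), and TCACATGA, which is both, is the 8mer.

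None of the 10 genes (0 of 10) had a match in its 3′ UTR, taken from the GENCODE M21 transcript with the longest coding sequence. The UTRs searched were 79 to 2113 bases long, the shortest being those of Tle1 and Tcf7l1 (88 bases). The annotated 3′ UTRs of their other coding transcripts held no match either. Among genes tested that have a 3′ UTR, 17.36% had a match, and 23.03% when all coding transcripts of a gene were searched. The coding sequences, searched after this was seen, were 909 to 4482 bases long in the 10 genes. A match was held by 5 of the 10 genes, against 15.32% of the coding genes tested, with no adjustment for length. The stretches are printed with the match in capitals and up to 11 bases to each side. Positions are counted from 1 at the first coding base.
Tle1, position 1305, 8mer: gatcctcctccTCACATGAgagtaccttct
Tle4, position 1284: gatccacaccaTCACATGcgagtgccagc
Tle4, position 415: ctcagcatttaTCACATGgacatggtctg
Tcf7l1, position 594: cagcaccctcaTCACATGcacccgctgac
Tcf7l2, position 1158: gaacgacagctTCACATGcagctgtaccc
Bcl9l, position 3427: ccaaccagatgCACATGAaccctgctgct
The Tle1 match and the Tle4 match at position 1284 lie in corresponding stretches of these related genes, which differ at 9 of 30 bases. The log2 fold changes of the 5 genes with a coding match ran from -0.44 (Tle4) to 0.10 (Bcl9l), inside the range of the 5 genes without one, from -1.48 (Lef1) to 0.35 (Tle3). A match is a description of letters and does not show that a transcript is bound.

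In the comparison of Mir with Scr, the co-activator gene Pygo2 and the co-repressor gene Tle3 were higher in all 3 Mir libraries than in any Scr library, by 0.34 ± 0.08 and 0.35 ± 0.11 on the log2 scale (± SE). Tcf7 was lower in all 3 Mir libraries, at -0.89 ± 0.38, and the largest difference in size was that of Lef1, at -1.48 ± 0.64, although its groups overlapped. The other 6 genes had overlapping groups and log2 fold changes between -0.44 (Tle4) and 0.10 (Bcl9l). None of the 10 passed the threshold over all genes (edgeR quasi-likelihood F test, Benjamini-Hochberg adjusted p under 0.05), which 0.00592% of genes tested did.

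At an unadjusted p under 0.05, edgeR counted 2 of the 10 genes as higher (Pygo2 and Tle3) and 1 as lower (Tcf7). The background at this level was 6.57% of all genes tested higher and 7.93% lower. DESeq2, run as an alternative, called 1 of the 10 higher, Pygo2, where it called 4.37% of the genes with an adjusted p, 1.86% higher and 2.51% lower. Limma-voom called 0 of the 10, and 0% of all genes. Groups that did not overlap were found for 2 genes on the higher and 1 on the lower side, against 9.9% and 10.3% of all genes tested (20.2% in all). A lower mean in Mir was found for 7 of the 10, against 51.2% of all genes tested. The median log2 fold change of the 10 was -0.097, beside -0.0077 over all genes tested.

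**Figure D1:**
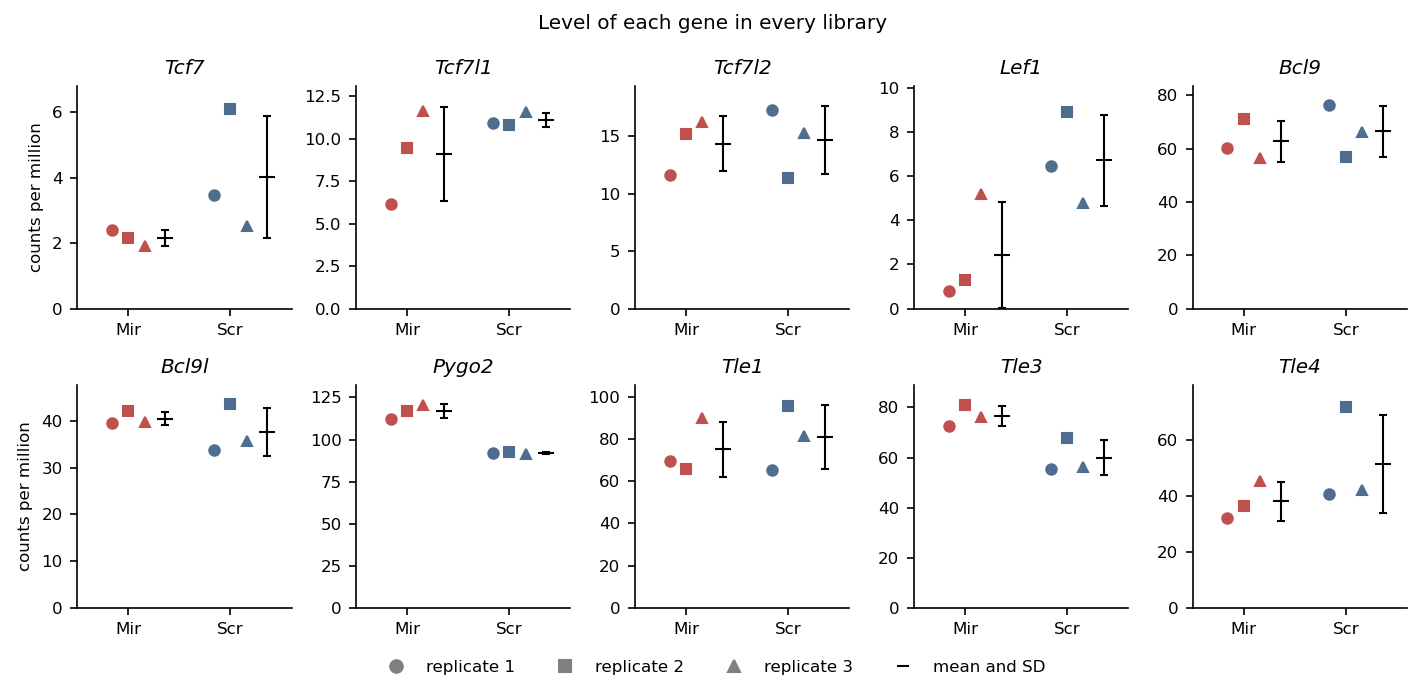
Level of each of the 10 genes in CPM (linear axes from 0, a scale of its own per gene), with 1 point per library and the mean ± SD beside each group of 3. Pygo2 and Tle3 in the Mir libraries lie above all Scr libraries, Tcf7 lies below them, and the 3 Mir values of Lef1 are spread from 0.82 to 5.18 CPM.

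The TCF/LEF factors were the least abundant of the 10. Lef1 (ENSMUSG00000027985, chromosome 3, 131110471 to 131224356, plus strand, GRCm38) encodes the factor that was first described in lymphocytes and whose gene is itself a Wnt target in many tissues. It had 13, 20 and 76 counts in Mir replicates 1, 2 and 3 and 82, 124 and 80 counts in Scr replicates 1, 2 and 3. As levels these were 0.820, 1.28 and 5.18 CPM in Mir, against 6.44, 8.88 and 4.80 CPM in Scr. Mir replicates 1 and 2 were far below every Scr library, while the Mir replicate 3 value lay above that of Scr replicate 3. The log2 fold change of -1.48 ± 0.64 had an adjusted p of 0.350 by edgeR.

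The Lef1 value depended on which libraries entered the fit. Without Mir replicate 3 it was -2.68 (edgeR adjusted p of 0.131). Without Mir replicate 1 it was -1.05. It was -2.40 in the fit that left out both Mir replicate 3 and Scr replicate 2, with an adjusted p of 0.0593 by edgeR. This p was the lowest over the alternatives, which ran up to 0.773. Mir replicate 3 had the highest Lef1 value of its group, so leaving it out enlarges the difference by construction. Fits without it are therefore no separate support. The order of the 6 libraries by Lef1 (highest in Scr replicate 2, then Scr replicate 1, Mir replicate 3, Scr replicate 3, Mir replicate 2 and Mir replicate 1) was also their order by summed endothelial markers. An endothelial covariate was also fitted, taken as the mean of log2 (CPM + 0.5) over the 15 markers and not as their sum. With it, the Lef1 log2 fold change was -0.67, with an adjusted p of 0.773 by edgeR. All 15 endothelial markers had a lower mean in Mir, and 7 of them, among them Pecam1, Cdh5 and Cldn5, had 0 counts in both Mir replicate 1 and Mir replicate 2. Mir replicates 1 and 2 were also the lowest libraries for the summed inhibitory neuron markers. The same held for 10 microglia markers (14.3 and 15.2 CPM) and 6 erythroid markers (53.2 and 1.72 CPM). Pericyte and mesenchyme markers were instead highest in Mir replicate 2, at 228 CPM. The covariate thus does not set endothelial RNA apart from that of other cells low in these libraries. The part of any of these cells in the Lef1 difference was not tested beyond these values. A part of the Lef1 exons, 1208 of 8788 bases, is shared with Gm43352, an antisense gene at 0.442, 1.79 and 2.59 CPM in Mir and 3.62, 4.44 and 2.04 CPM in Scr. The libraries carry no strand information, so that reads of the pair cannot be told apart there. The strand setting of the counting is not given. Whether such reads were counted for Lef1, for Gm43352 or for neither is therefore not known.

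Tcf7 (ENSMUSG00000000782, chromosome 11, 52252371 to 52283014, minus strand) encodes TCF1, best known as a factor of T lymphocytes and as a β-catenin partner that is also made in short forms lacking the β-catenin domain. It was at 2.40, 2.17 and 1.91 CPM in Mir, from 38, 34 and 28 counts, and at 3.46, 6.09 and 2.52 CPM in Scr, from 44, 85 and 42 counts. The groups did not overlap, but the gap between Mir replicate 1 and Scr replicate 3 was small and Scr replicate 2 stood above all the rest. The log2 fold change of -0.89 ± 0.38 had an adjusted p of 0.338 by edgeR, with 0.307 to 0.892 over the alternatives. It was -0.46 without Scr replicate 2 and -0.38 with the endothelial covariate, and the part of endothelial or inhibitory neuron RNA in the difference was not tested beyond these values. Of 7 T lymphocyte markers, 4 to 6 had 0 counts in each Mir library and 4 to 5 in each Scr library, and the summed level of the list was 4.67 to 7.97 CPM in Mir and 4.58 to 6.71 CPM in Scr.

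Tcf7l1 and Tcf7l2, which encode TCF3 and TCF4, made up most of the TCF/LEF level. TCF3 acts mainly as a repressor in the mouse embryo. Tcf7l1 (ENSMUSG00000055799, chromosome 6, 72626378 to 72789254, minus strand) was at 6.18, 9.44 and 11.7 CPM in Mir and at 10.9, 10.8 and 11.6 CPM in Scr. Mir replicate 1 was the one library well below the others, and the groups overlapped through Mir replicate 3, the highest of all. Its log2 fold change was -0.29 ± 0.25 (adjusted p of 0.622 by edgeR), and it was -0.08 without Mir replicate 1. TCF4, the product of Tcf7l2, is the main Wnt effector of the intestinal epithelium and is also found in thalamic neurons. Tcf7l2 (ENSMUSG00000024985, chromosome 19, 55741820 to 55933654, plus strand) was at 11.6, 15.2 and 16.2 CPM in Mir and at 17.2, 11.4 and 15.3 CPM in Scr, with full overlap. Its log2 fold change was -0.03 ± 0.21 (adjusted p of 0.962 by edgeR), and leaving out single libraries moved it between -0.18 and 0.10. The summed level of 6 thalamic markers was 197 to 326 CPM in Mir and 250.3 to 346 CPM in Scr, and Gbx2, which defines thalamic neurons, was at 0 to 0.300 CPM in all libraries.

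**Figure D2:**
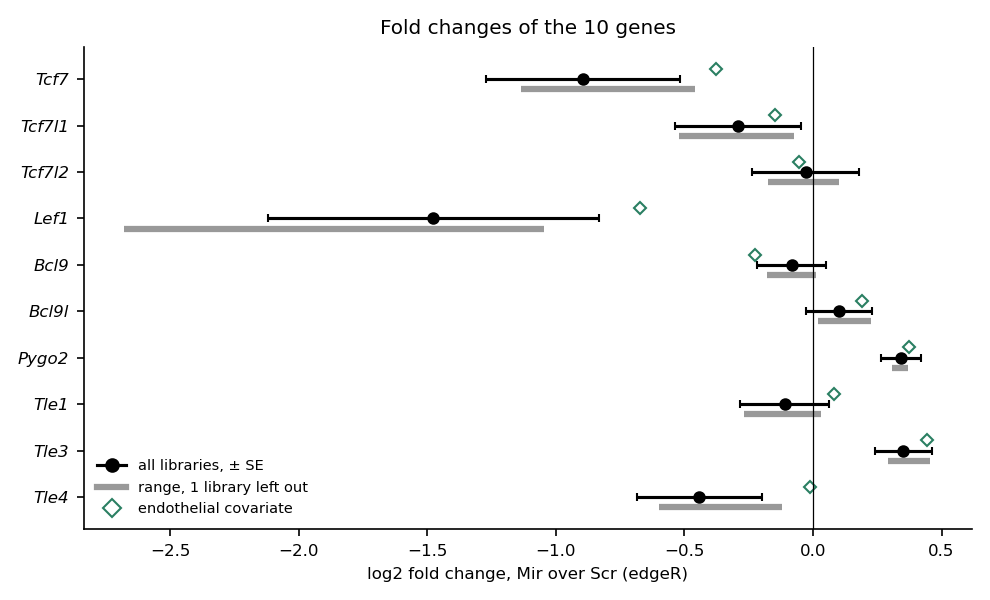
Log2 fold changes of Mir over Scr for the 10 genes from edgeR. Black points show all 6 libraries with their SE, grey bars the range when 1 library at a time was left out, and open diamonds the fit with the endothelial covariate. The bars of Pygo2 (0.31 to 0.37) and Tle3 (0.29 to 0.45) stay narrow, that of Lef1 runs from -2.68 to -1.05, and Tle4 moves from -0.44 to -0.01 with the covariate.

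Bcl9 and Bcl9l, the adaptors between β-catenin and the Pygopus proteins, had groups that overlapped. Bcl9 (ENSMUSG00000038256, chromosome 3, 97203662 to 97297917, minus strand) was at 60.4, 71.3 and 56.6 CPM in Mir and at 76.3, 57.0 and 66.2 CPM in Scr. Bcl9l (ENSMUSG00000063382, chromosome 9, 44482825 to 44511896, plus strand) was at 39.6, 42.2 and 39.8 CPM in Mir and at 33.7, 43.6 and 35.8 CPM in Scr. Their log2 fold changes were -0.08 ± 0.13 and 0.10 ± 0.13, with adjusted p-values of 0.816 and 0.753 by edgeR. Bcl9l shares 662 exonic bases with the antisense gene Gm47205 and 110 with Cxcr5, a chemokine receptor gene. Tcf7l1 shares 179 exonic bases with the antisense gene Gm15401, and Tle1 shares 247 with the antisense gene Gm11250. The limit given for Lef1 and Gm43352 holds for these overlaps too.

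Pygo2 gave the clearest separation of the 10. Pygo2 (ENSMUSG00000047824, chromosome 3, 89430214 to 89435128, plus strand) encodes the more widely expressed of the pair of mammalian Pygopus proteins. It had 1782, 1836 and 1772 counts in Mir and 1170, 1294 and 1525 counts in Scr. Scaled for library size this was 112, 117 and 121 CPM in Mir, against 91.9, 92.7 and 91.4 CPM in Scr, a mean of 117 ± 4.18 CPM and of 92.0 ± 0.644 CPM (SD, n = 3 each). The Scr libraries differed by little more than 1 CPM and all 3 Mir libraries were above them. At these counts, the error of counting reads alone is usually larger than the Scr SD. That SD may therefore understate the spread between pools. The adjusted p was 0.206 by edgeR, where Pygo2 ranked 200 by p among all genes tested, and 0.0138 by DESeq2, the lowest of the alternatives, which ran up to 0.592 with the endothelial covariate. Its fold change was 0.31 to 0.37 when single libraries were left out and 0.37 with that covariate.

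The paralog Pygo1 went the other way in its means. Pygo1 was at 28.0, 28.9 and 33.0 CPM in Mir and at 35.8, 49.2 and 37.8 CPM in Scr, a log2 fold change of -0.45 ± 0.15 (adjusted p of 0.276 by edgeR). It was -0.29 without Scr replicate 2 and -0.24 with the endothelial covariate. Per kb of exon, Pygo2 made up 89.7, 89.8 and 88.9% of the summed Pygopus level in Mir and 84.9, 80.4 and 84.1% in Scr. This share was thus higher in every Mir library, with no test made on it.

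Among the Groucho-type co-repressors, Tle3 and Tle4 had means that lay on opposite sides. TLE proteins are held by TCF/LEF factors and recruit histone deacetylases, and Tle4 is in addition a marker of layer 6 neurons in the cortex. Tle3 (ENSMUSG00000032280, chromosome 9, 61372366 to 61418497, plus strand) was at 72.7, 80.9 and 76.2 CPM in Mir and at 55.6, 67.9 and 56.4 CPM in Scr. Every Mir library exceeded every Scr library, with Scr replicate 2 the nearest. Its adjusted p was 0.253 by edgeR and 0.117 by DESeq2, with 0.0981 to 0.613 over all alternatives. Tle4 (ENSMUSG00000024642, chromosome 19, 14448150 to 14598051, minus strand) was at 32.2, 36.3 and 45.5 CPM in Mir and at 40.6, 71.6 and 42.1 CPM in Scr. Here Scr replicate 2 stood far above the other libraries and the groups overlapped. The log2 fold change of Tle4 was -0.44 ± 0.24 (adjusted p of 0.448 by edgeR), -0.12 without Scr replicate 2 and -0.01 with the endothelial covariate. The summed level of 12 layer 6 and subplate markers was 665, 695 and 959 CPM in Mir and 886, 1511 and 917 CPM in Scr. This sum ordered the 6 libraries as Tle4 did, although only 9 of the 12 markers had a lower mean in Mir. The part of layer 6 neurons in the Tle4 levels was not tested.

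Tle1 (ENSMUSG00000008305, chromosome 4, 72117142 to 72200919, minus strand), which encodes another Groucho-type co-repressor, was at 69.3, 66.0 and 89.7 CPM in Mir and at 65.3, 95.6 and 81.3 CPM in Scr. The groups overlapped throughout, with a log2 fold change of -0.11 ± 0.17 (adjusted p of 0.807 by edgeR). Tle5, a short relative that lacks the WD40 repeats, was at 478 to 540 CPM in Mir and 453 to 550.2 CPM in Scr, and Tle2 at 9.34 to 17.9 CPM in Mir and 12.02 to 21.1 CPM in Scr. Tle6 had 3 to 9 counts in Mir and 5 to 10 counts in Scr and was not tested. Within Tle1, Tle3 and Tle4, the share of Tle3 per kb of exon was 31.4, 33.2 and 26.4% in Mir and 24.6, 19.9 and 22.5% in Scr, and that of Tle4 was 28.4, 30.5 and 32.1% in Mir and 36.7, 42.8 and 34.2% in Scr. Neither share overlapped between the groups, although the Tle4 levels in CPM did. The share of Tle1 was 36.3 to 41.5% in Mir and 37.4 to 43.3% in Scr.

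Markers of cell state are given beside the Pygo2 and Tle3 values, with no test on their sums. Only the sum for postmitotic neurons was without overlap between the groups. The summed level of 12 markers of postmitotic cortical neurons was 5134, 4663 and 5083 CPM in Mir and 5682, 6851 and 5870 CPM in Scr, without overlap. Of these 12, 9 had a lower mean in Mir. Neurod2 did not, at 513, 566 and 573 CPM in Mir and 514, 545 and 508 CPM in Scr. For 15 radial glia markers, 2 of them with a lower mean in Mir, the summed level was 2673, 3227 and 3577 CPM in Mir. It was 2631, 2000 and 2755 CPM in Scr, with overlap through Mir replicate 1. For 9 intermediate progenitor markers, all with a higher mean in Mir, it was 3789, 4205 and 2891 CPM in Mir and 3175, 2051 and 2744 CPM in Scr, with overlap through Mir replicate 3. Their part in the differences of Pygo2 and Tle3 was not tested.

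**Figure D3:**
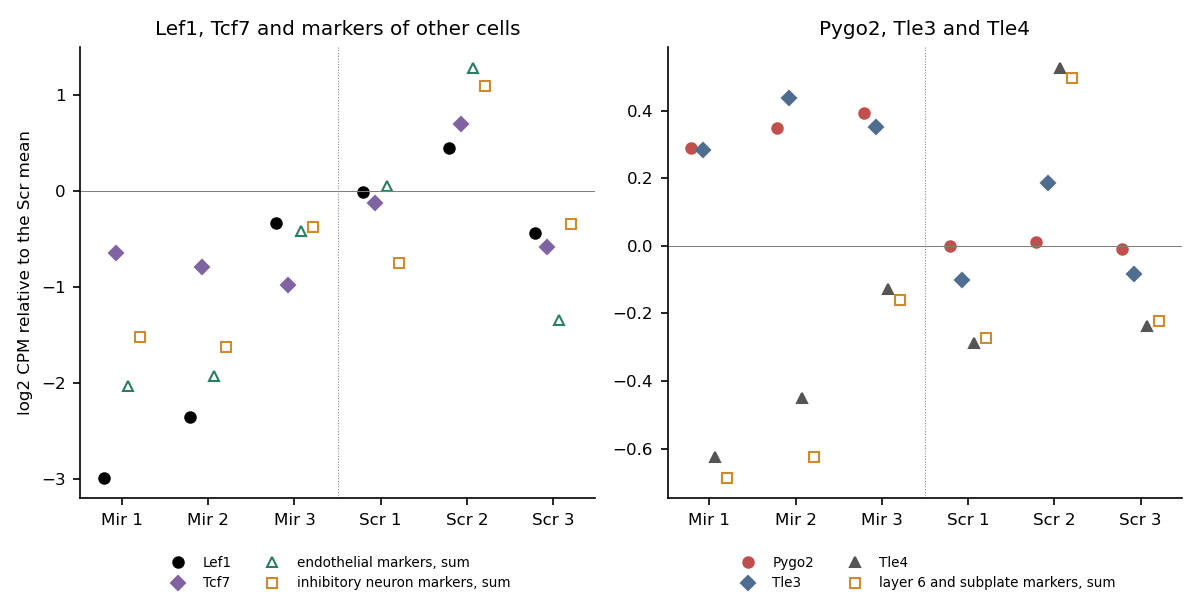
Log2 ratio of each library's CPM to the Scr mean, for Lef1 and Tcf7 beside the summed endothelial and inhibitory neuron markers (left) and for Pygo2, Tle3 and Tle4 beside the summed layer 6 and subplate markers (right). Filled symbols are single genes and open symbols sums of marker lists. Lef1 (0.820 CPM in Mir replicate 1, 8.88 CPM in Scr replicate 2) spans a range like that of the endothelial sum (34.0 and 339 CPM), and Tle4 and the layer 6 sum are both highest in Scr replicate 2 and lowest in Mir replicate 1.

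Promoter windows of 300 bases around annotated starts (250 before, 50 after) were read from RefSeq (GRCm38.p6), which held 17 windows for 9 of the 10 genes and none for Bcl9l. Neither CTTTGAA nor CTTTGAT, words of the TCF/LEF recognition sequence, occurred in any of the 17 windows on either strand. Of all 32851 windows, 8.651% held at least 1 of them. Both words are rich in A and T. The G and C content of the 250 bases before the start was 79.2% for Bcl9, 77.2% for Tle1 and 73.6% for Tcf7l1, down to 40.8% for a Tcf7l2 start. The median over all windows was 52.4%. Some windows of Pygo2 and of Lef1 also overlap one another. No adjustment was made for either. The 250 bases before the first start sites of Pygo2 and Tle3 are printed because these genes were higher together in Mir. Capitals mark the CCAAT box (CCAAT), the E-box word CACGTG and TATAAA, each on either strand. These words do not overlap, and they occur in 33.85, 6.021 and 12.37% of all such windows.
Pygo2, chr3:89429964-89430213, plus strand: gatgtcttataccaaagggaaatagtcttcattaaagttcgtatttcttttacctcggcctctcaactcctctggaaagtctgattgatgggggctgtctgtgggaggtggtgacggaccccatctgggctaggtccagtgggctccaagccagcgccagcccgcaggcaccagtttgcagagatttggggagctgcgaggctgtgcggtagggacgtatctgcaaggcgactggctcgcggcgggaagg
Tle3, chr9:61372116-61372365, plus strand: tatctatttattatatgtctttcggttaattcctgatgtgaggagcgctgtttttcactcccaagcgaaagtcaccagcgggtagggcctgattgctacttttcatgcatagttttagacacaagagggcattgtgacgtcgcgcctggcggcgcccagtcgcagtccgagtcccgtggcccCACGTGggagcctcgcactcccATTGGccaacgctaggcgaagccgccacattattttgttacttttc
The Tle3 window held CACGTG and, on the minus strand, CCAAT, and the Pygo2 window held none of the 3 words. The windows of 2 further Pygo2 starts overlap and share the same single CCAAT, which lies downstream of the first start. Their G and C content was 52.4% for Tle3 and 56.8% for Pygo2, beside a median of 52.4% over all windows. The words are a description of these windows and say nothing of binding.

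Levels of different genes can be compared only per length, here as CPM per kb of the union of a gene's exons. Pygo2 was the most abundant of the 10, at 31.0 to 33.3 in Mir and 25.2 to 25.5 in Scr, and its range lay clear of all others. Tle1, Bcl9, Tle4, Tle3 and Bcl9l followed by their medians over the 6 libraries (8.65, 7.50, 7.25, 6.03 and 4.96), with neighbours that overlapped. A gap separated Bcl9l from the TCF/LEF factors, whose medians were 2.77 for Tcf7l1, 1.74 for Tcf7l2, 0.936 for Tcf7 and 0.568 for Lef1, each again overlapping its neighbour. Ctnnb1, the β-catenin gene, was at 226 to 234 in Mir and 189 to 193 in Scr on the same scale. Tcf7l2 came before Tcf7l1, and Lef1 before Tcf7, when the longest transcript was used as the length.

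The make-up of the TCF/LEF family is given with no test. The summed level of the 4 factors per kb was 3.91, 5.11 and 6.14 in Mir and 6.80, 7.38 and 6.19 in Scr with exon unions as lengths. The groups were apart only by the narrow margin between Mir replicate 3 and Scr replicate 3, and they overlapped with longest transcripts as lengths, where the sum was 10.4 in Mir replicate 3 and 10.2 in Scr replicate 3. Lef1 held 2.39, 2.84 and 9.61% of this sum in Mir and 10.8, 13.7 and 8.81% in Scr. Tcf7l2 held 33.9, 33.9 and 30.1% in Mir and 28.9, 17.6 and 28.1% in Scr, without overlap. Its own level overlapped between the groups, with a log2 fold change of -0.03. A share also depends on the levels of the other genes in the sum. Tcf7l1 was the largest share in every library, at 40.3, 47.1 and 48.4% in Mir and 41.0, 37.3 and 47.6% in Scr, when lengths were those of exon unions.

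**Figure D4:**
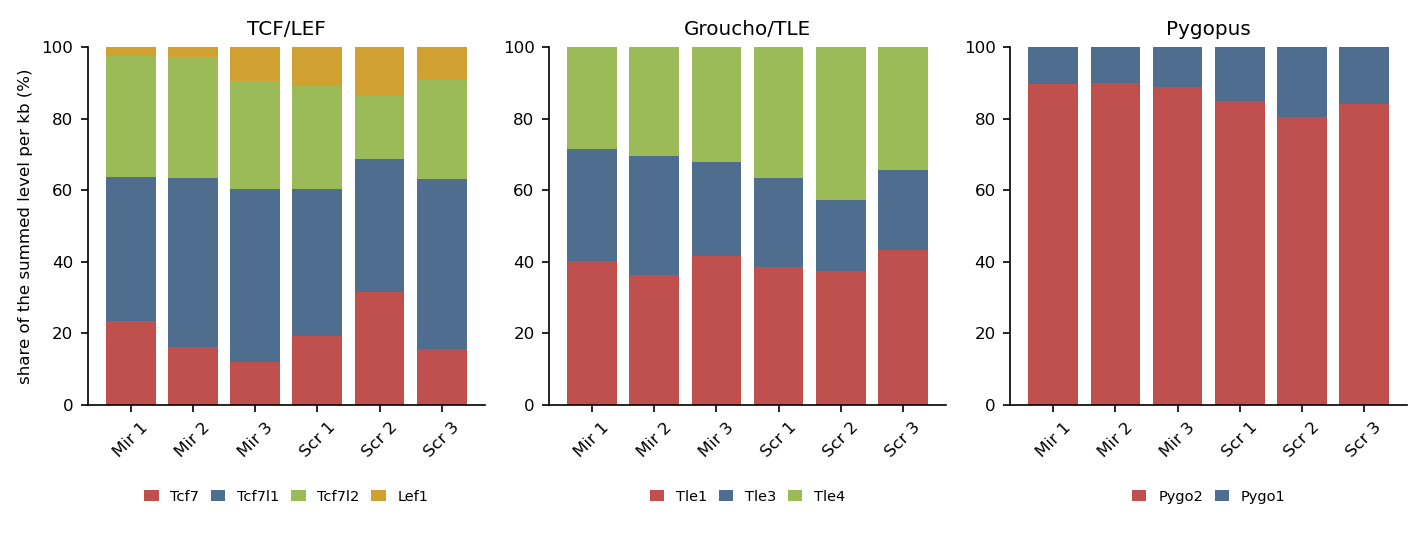
Share of each gene in the summed level per kb of exon of its family, in percent, for the TCF/LEF factors, for Tle1, Tle3 and Tle4, and for Pygo2 and Pygo1, with 1 bar per library. The Lef1 share is 2.39 and 2.84% in Mir replicates 1 and 2 and 8.81 to 13.7% in the other 4 libraries, and the shares of Tle3 and Pygo2 are higher in each Mir library than in any Scr library.

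Genes whose pattern over the 6 libraries was most like that of each TCF/LEF factor were taken by the smallest root mean square difference of centred log2 levels, among 12042 genes with a mean of at least 5 CPM. For Lef1 these were Ablim1 (an actin-binding LIM protein), Cd82 (a tetraspanin) and Zfhx3 (a zinc finger and homeobox factor), at differences of 0.339, 0.350 and 0.351. Like Lef1, they were low in Mir replicates 1 and 2 and highest in Scr replicate 2: Zfhx3 was at 10.1, 9.95 and 38.0 CPM in Mir and 29.0, 84.2 and 30.4 CPM in Scr. For Tcf7 they were Car11 (a carbonic anhydrase relative), Sept4 (a septin) and Pcdh9 (a protocadherin), at 0.0621, 0.0850 and 0.147. The nearest to Tcf7l1 were Acbd4, Il6st (the gp130 receptor chain) and Etv1 (an ETS factor), at 0.0635 to 0.114, and the nearest to Tcf7l2 were Parva (an integrin-linked adaptor), Gm47958 and Taf5 (a TFIID subunit), at 0.0593 to 0.0708. These likenesses are a description over 6 libraries, with no test.

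Beyond the 10 genes, the other parts of the pathway were counted from lists drawn up by role. Their counts stand beside shares over all genes of 6.57% higher and 7.93% lower at an unadjusted p under 0.05 in edgeR, and of 1.86% higher and 2.51% lower by DESeq2. Of the 4 other Pygopus and TLE genes, 3 were tested, and edgeR called 0 in each direction, with Pygo1 as the 1 gene lower at an unadjusted p under 0.05 and DESeq2 calling 0. Of 32 other nuclear cofactors (co-activators, co-repressors and kinases), all tested, edgeR called 0 higher and 0 lower, with 4 higher and 4 lower at an unadjusted p under 0.05, and the median log2 fold change was -0.0065. DESeq2 called 1 of them higher. This was Ctnnb1, at 1214, 1217 and 1173 CPM in Mir and 1004, 979 and 979 CPM in Scr, a log2 fold change of 0.28 ± 0.06. Its adjusted p was 0.198 in edgeR but 0.00528 in DESeq2, and 0.00528 to 0.613 over all alternatives. Ssbp3, a partner of the LDB1 adaptor in Wnt enhancer complexes, was at 210 ± 15.1 CPM in Mir and 274 ± 39.0 CPM in Scr, and the deacetylase gene Hdac1 at 40.4 ± 1.71 CPM in Mir and 33.0 ± 2.17 CPM in Scr (SD, n = 3 each). Their adjusted p-values were 0.253 and 0.290 by edgeR.

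Of 30 Wnt target genes 20 were tested, and edgeR called 0 in each direction, with 4 higher and 2 lower at an unadjusted p under 0.05 and a median log2 fold change of -0.12. DESeq2 called 2 of them lower, Sp8 and Id2. Sp8, a zinc finger factor of frontal cortical patterning, was at 7.38, 5.81 and 9.20 CPM in Mir, against 16.6, 16.0 and 17.0 CPM in Scr, with a log2 fold change of -1.15 ± 0.20 and an adjusted p of 0.171 by edgeR. Id2, whose product blocks DNA binding by bHLH factors, was at 506 ± 18.2 CPM in Mir and 724 ± 84.4 CPM in Scr (SD, n = 3 each; adjusted p of 0.178 by edgeR). Sp8 is also expressed in some inhibitory neurons, whose 10 markers all had a lower mean in Mir, and their part in the Sp8 difference was not tested. Ephb3, a receptor for ephrins, was at 10.4 ± 2.19 CPM in Mir and 5.93 ± 0.577 CPM in Scr (SD, n = 3 each; adjusted p of 0.229 by edgeR). Of 30 genes of the destruction complex, ligands, receptors and secreted antagonists, all tested, edgeR called 0 in each direction, with 8 higher and 4 lower at an unadjusted p under 0.05, and DESeq2 called 3 higher and 3 lower. The 3 of smallest p were Sfrp1, a secreted Wnt antagonist, at 538 ± 47.8 CPM in Mir and 331 ± 8.06 CPM in Scr, and the Frizzled receptor genes Fzd3, at 171 ± 6.06 CPM in Mir and 265 ± 15.8 CPM in Scr, and Fzd8, at 86.5 ± 14.9 CPM in Mir and 44.6 ± 4.84 CPM in Scr (SD, n = 3 each). Their adjusted p-values by edgeR were 0.159, 0.159 and 0.167. The median log2 fold change of this list was 0.13.

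**Figure D5:**
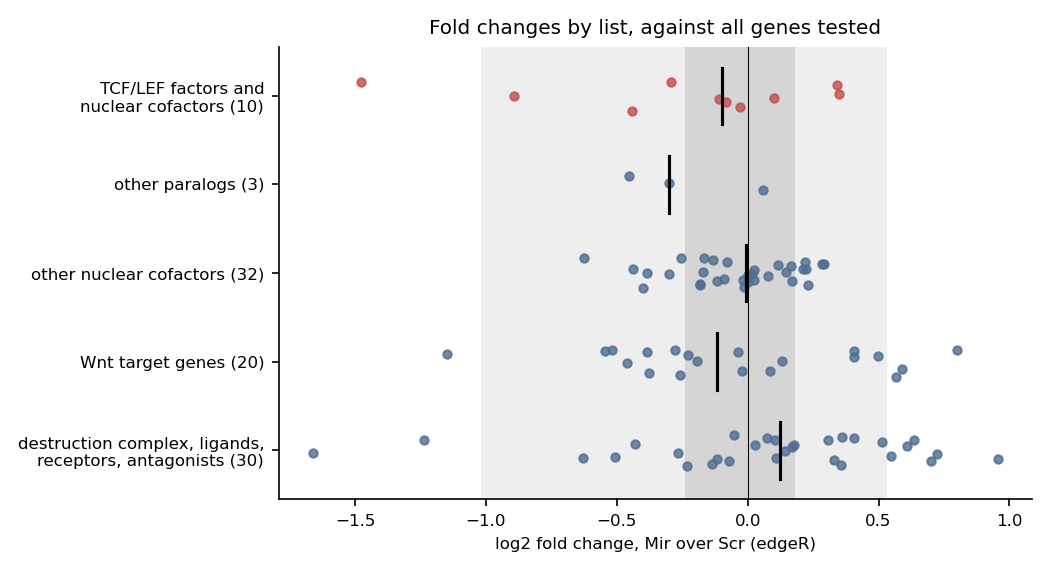
Log2 fold changes of Mir over Scr for the 10 genes and for the members tested of the other lists, with 1 point per gene and a black line at each median. The dark band spans the quartiles of all 16897 genes tested (-0.24 to 0.18) and the light band the 5th to the 95th percentile (-1.01 to 0.53). Lef1 lies outside the light band, and the medians of the lists lie between -0.30 and 0.13.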

How the data were processed

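RNA sequencing gave 1 deposited table of raw read counts per gene for each of 6 libraries (50 bp single reads from SMART-seq v4 cDNA, per the labels' protocols). The submitters' processing notes name HISAT2 2.1.0, HTSeq 0.11.0, DESeq2 1.18.1 and the build mm10 (GRCm38). Not given in the sources used here: the annotation, the strand setting and how multiple alignments were handled. Lines that name no gene were left out of library sizes. They listed 28.8 to 31.6% of reads as in no feature and 39.3 to 44.4% as not uniquely aligned, so that 21.9 to 23.6% fell in genes. Reads carry no molecular identifiers and are not independent molecules.

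Symbols, exon lengths and transcripts came from GENCODE M21 (GRCm38), which named 54079 of 54146 genes. Tle5 was matched through a RefSeq synonym. The test was edgeR 4.0.16 (R 4.3.3), the two-sided quasi-likelihood F test of Mir over Scr on all 6 libraries, with TMM factors (0.992 to 1.01), filterByExpr and Benjamini-Hochberg adjustment over 16897 genes at a threshold of 0.05. SE values come from the F statistic. CPM are counts per gene scaled by all counts in genes, computed here from the deposited counts. The spread that the p-values rest on is that between embryo pools. Alternatives were other normalizations, tools, filters, a replicate block, an endothelial covariate and leaving libraries out. DESeq2 1.42.0 gave 3612 genes no adjusted p, and limma-voom used limma 3.58.1. Scripts were tested on simulated data. Libraries of a group did not repeat one another (chi-square per degree of freedom 8.01 to 28.0). The members and lists were chosen with earlier results of these data known. All members were named, with the 3 genes of smallest p per list and the 3 nearest patterns per TCF/LEF factor.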

Additional observations from a re-analysis of the deposited data

How the results depend on the processing

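Over all genes edgeR called 0 higher and 1 lower. DESeq2 called 247 and 333, no filter on low counts gave 15 and 16, leaving out Scr replicate 2 and Mir replicate 3 together gave 10 and 19, and limma-voom called 0 and 0. Leaving out 1 library gave 0 to 0 higher and 0 to 2 lower. The replicate block gave 0 lower, and it called none of the 10 genes. The replicate numbers are not stated to pair libraries and were not taken to do so. Deviations of libraries with the same number had correlations of 0.25, -0.15 and -0.086. The highest correlation was that of Mir replicate 3 with Scr replicate 2, at 0.36. Of the 10 genes, 1 was called by DESeq2 (Pygo2) and none by any other alternative. Fold changes near 0 changed sign: with 1 library left out, Tcf7l2 ran from -0.18 to 0.10, Bcl9 from -0.18 to 0.013 and Tle1 from -0.27 to 0.032, and Tle1 was at 0.083 with the endothelial covariate. The cause was not tested. Tcf7 did not pass the filter at a minimum count of 50. In the lists, DESeq2 called 1 nuclear cofactor higher, 2 targets lower, and 3 higher and 3 lower among the membrane and destruction complex genes, of which no filter on low counts called 2 higher and 1 lower. The mean Lef1 share of the TCF/LEF level in Scr was 16.5% by longest transcript and 11.1% by exon union. Seed matches were in 0 genes for all 3′ UTRs and in 5 for coding sequences, a search added after seeing the data. Lef1 and Tcf7 rest on 13 to 124 counts per library, which limits their precision.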
